A study of Mus musculus with 7 samples.

Results

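The 43 interferon-stimulated genes described here were named as a list by symbol, and each was matched to its Ensembl row among the 28987 genes of a bone marrow RNA sequencing table, so 43 of 43 were found. The list was divided into 11 IFIT/OAS/MX genes, 7 GBP/IRG genes, 5 regulators, 6 sensors, 3 genes of the PARP and DTX3L group and 11 other effectors. Values are TPM, the share of transcripts in a library after correction for their length. Bone marrow was taken from individual C57BL/6 mice in 7 libraries. Stem and progenitor cells of blood formation (HSC/P) were enriched on CD117 and sorted for the mutant clone, and came from RUNX1mut/HMGA2-OE mice (2 libraries) and HMGA2-OE mice (1 library), where RUNX1mut stands for mutated RUNX1 and HMGA2-OE for overexpressed HMGA2. Sorted Ly6G+ cells, a gate that holds mainly neutrophils, came from RUNX1mut/HMGA2-OE, RUNX1mut, HMGA2-OE and Control mice (1 library each). HMGA2 overexpression was thus shared by all 3 HSC/P libraries, and no HSC/P library of Control or RUNX1mut mice was analysed here. The Control library was also labelled WT, short for wild type, and the labels gave nothing further on what those mice carried. The RUNX1 allele, the promoter that drives HMGA2 and the age of the mice were not given in the labels.

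Interferon-stimulated genes are switched on when type I or type III interferon binds its receptor, JAK kinases become active, and the complex ISGF3, which holds STAT2 and IRF9, binds a DNA element called the ISRE. Interferon gamma acts through another element, the GAS, and GBP and IRG genes are known as strong targets of that branch. The products block viral translation, degrade viral RNA, attack vacuoles that hold microbes, sense nucleic acids or feed back on the pathway. Stem cells and neutrophils are both known to express part of this set without infection.

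The promoters of 31 members were in the RefSeq promoter table (GRCm38.p6, 250 bases before to 50 after the annotated start). The ISRE core was searched as GAAA, any 2 bases and GAAA on both strands, so on the reverse strand it appears as TTTC, any 2 bases and TTTC, and a gene with several annotated starts was counted once. It was found in 20 of the 31 members, or 64.5%, against 3.99% of the 27025 genes with a promoter of that length. The GAS core, TTC, any 3 bases and GAA on both strands, was in 8 of 31 (25.8%), against 9.55% of all genes. The ISRE core was in 6 of 6 GBP/IRG promoters and 5 of 8 IFIT/OAS/MX promoters, and the GAS core in 3 of 6 and 2 of 8. These matches describe letters in a window and do not show binding. The following 5 promoters are shown as examples from the 20 members with an ISRE core, and the other 11 members had none. Capitals mark the ISRE cores, which overlap one another in Isg15 and in Bst2.
Isg15 (chr4:156200769-156201068, minus strand): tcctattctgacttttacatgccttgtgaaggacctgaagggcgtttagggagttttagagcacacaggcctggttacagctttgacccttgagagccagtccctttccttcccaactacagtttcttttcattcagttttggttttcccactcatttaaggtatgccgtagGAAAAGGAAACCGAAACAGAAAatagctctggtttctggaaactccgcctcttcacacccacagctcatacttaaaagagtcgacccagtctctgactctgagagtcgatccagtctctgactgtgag
Ifit1 (chr19:34640639-34640938, plus strand): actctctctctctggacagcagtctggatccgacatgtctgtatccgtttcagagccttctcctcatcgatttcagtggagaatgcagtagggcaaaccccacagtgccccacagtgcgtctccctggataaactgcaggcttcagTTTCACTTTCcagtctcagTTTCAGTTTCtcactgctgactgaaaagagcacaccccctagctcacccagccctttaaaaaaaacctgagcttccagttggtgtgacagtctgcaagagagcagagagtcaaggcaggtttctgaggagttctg
Gbp2 (chr3:142620413-142620712, plus strand): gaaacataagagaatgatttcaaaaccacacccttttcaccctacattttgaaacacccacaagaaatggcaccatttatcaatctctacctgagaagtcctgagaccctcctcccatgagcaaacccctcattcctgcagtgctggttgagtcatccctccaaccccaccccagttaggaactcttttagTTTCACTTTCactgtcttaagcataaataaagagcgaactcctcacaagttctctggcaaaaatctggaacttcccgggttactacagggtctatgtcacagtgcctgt
Tgtp2 (chr11:49064163-49064462, minus strand): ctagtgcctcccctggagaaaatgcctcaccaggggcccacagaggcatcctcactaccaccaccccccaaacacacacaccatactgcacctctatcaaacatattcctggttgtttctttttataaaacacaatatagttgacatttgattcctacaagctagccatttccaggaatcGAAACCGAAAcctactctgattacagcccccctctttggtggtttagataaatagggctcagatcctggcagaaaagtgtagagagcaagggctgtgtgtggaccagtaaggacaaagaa
Bst2 (chr8:71537423-71537722, minus strand): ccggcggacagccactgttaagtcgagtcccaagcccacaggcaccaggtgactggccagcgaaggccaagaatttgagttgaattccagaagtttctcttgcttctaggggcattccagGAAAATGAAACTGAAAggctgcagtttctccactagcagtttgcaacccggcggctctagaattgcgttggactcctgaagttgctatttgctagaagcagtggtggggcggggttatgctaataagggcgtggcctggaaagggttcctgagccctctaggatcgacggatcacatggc
The first base of the first core lay 78 bases before the start in Isg15, 104 in Ifit1, 59 in Gbp2, 70 in Tgtp2 and 130 in Bst2.

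The libraries differed in ways that bear on every value. S100a8 alone took 3.11% of TPM in the RUNX1mut/HMGA2-OE Ly6G+ library, against 40.2% in RUNX1mut, 55.0% in HMGA2-OE and 44.3% in Control Ly6G+ cells. TPM is a share, so fold changes, ratios and tests were taken after scaling libraries to each other by a trimmed mean of log ratios. Levels per library and sums of markers are given as deposited unless called scaled, and the Ly6G+ scaling factors ran from 0.689 to 1.60. Without that scaling the median of all genes stood at a log2 of 0.14 for the mutation in HSC/P, 0.58 for the RUNX1 term and 0.13 for the HMGA2-OE term in Ly6G+ cells, 1.46 for HSC/P over Ly6G+ and -0.77 for the interaction. Read depth and counting error are unknown, since TPM keeps no counts. Runx1 stood at 219 and 225.0 TPM in RUNX1mut/HMGA2-OE HSC/P and 18.9 TPM in HMGA2-OE HSC/P, and in Ly6G+ cells at 21.2 TPM in RUNX1mut/HMGA2-OE, 11.6 TPM in RUNX1mut, 3.36 TPM in HMGA2-OE and 3.86 TPM in Control. Hmga2 stood between 138 and 176 TPM in all HSC/P libraries. In Ly6G+ cells Hmga2 was low throughout, with 12.1 TPM in RUNX1mut/HMGA2-OE, 1.36 TPM in RUNX1mut, 3.72 TPM in HMGA2-OE and 1.45 TPM in Control. In a check of the labels, all 12 neutrophil markers reached 1 TPM in every library, with sums of 18049 to 63247 TPM in HSC/P and 308989 to 678794 TPM in Ly6G+ cells. The 8 stem and progenitor markers summed to 352 to 945 TPM in HSC/P and 12.1 to 42.9 TPM in Ly6G+ cells.

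All 43 members were above 0 in every library, and between 36 and 42 reached 1 TPM. Their summed level as deposited was 912 and 875 TPM in RUNX1mut/HMGA2-OE HSC/P and 752 TPM in HMGA2-OE HSC/P. In Ly6G+ cells it was 2411 TPM in RUNX1mut/HMGA2-OE, 1507 TPM in RUNX1mut, 781 TPM in HMGA2-OE and 827 TPM in Control. As deposited, the set therefore made up between 0.0787% and 0.245% of TPM. Scaled within each cell type, the sums were 891 and 833 in RUNX1mut/HMGA2-OE HSC/P and 810 in HMGA2-OE HSC/P. In Ly6G+ cells the scaled sums were 1509 in RUNX1mut/HMGA2-OE, 1478 in RUNX1mut, 1134 in HMGA2-OE and 928 in Control. Ifi27l2a, which encodes a small interferon-induced protein, made up 1237 of the 2411 TPM in the RUNX1mut/HMGA2-OE Ly6G+ library. Bst2, which encodes tetherin, was the highest member in HSC/P.

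**Figure D1:**
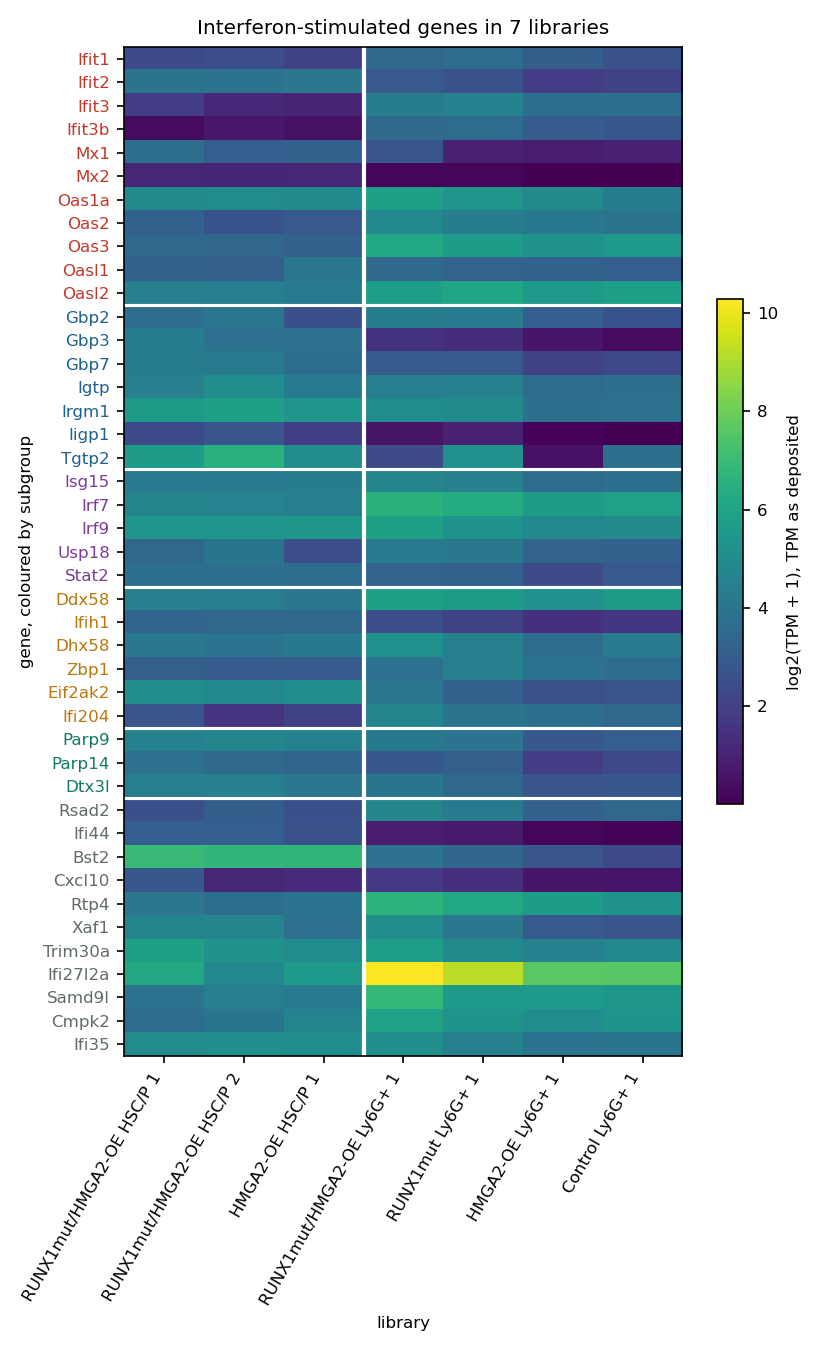
Level of each of the 43 genes (rows, grouped and coloured by subgroup) in each of the 7 libraries (columns), as log2 of deposited TPM plus 1. Bst2 is brightest in the 3 HSC/P libraries and Ifi27l2a in the 4 Ly6G+ libraries, where it reaches 1237 TPM.

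Of the 5 tests, the one between cell types was the one that called members after scaling. In the 5 libraries with HMGA2-OE, 30 of 43 members were lower in HSC/P than in Ly6G+ cells and 5 were higher (limma on log2 of scaled TPM plus 1, RUNX1 mutation as covariate, 2 residual degrees of freedom, Benjamini-Hochberg adjusted p under 0.05). Among all 12686 genes tested, 32.8% were lower and 31.6% higher. The members had a median log2 fold change of -1.76, against 0.08 over all genes. The lower members included Ifi27l2a, Ifit3, Oas3 and Rtp4, and the higher ones Tgtp2, Bst2, Gbp3 and Ifi44. The size of this difference depended on the scaling: without it 13 members were higher and 15 lower, where 64.4% of all genes were higher and 8.88% lower, and the members' median was 0.10 against 1.46 over all genes. With upper-quartile scaling 6 were higher and 26 lower, against 42.8% and 24.5% of all genes.

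Some calls held under all 3 scalings. The 5 higher members, Tgtp2, Gbp3, Iigp1, Bst2 and Ifi44, were higher under each of them, as were 31.6% of all genes. The other scalings moved genes up in HSC/P relative to Ly6G+ cells, and all 4013 genes called higher with the trimmed mean stayed higher. That agreement adds no support for the higher members. On the lower side 1117 genes held, beside 1126 called lower without scaling. The 15 that were lower under each were Ifit1, Ifit3, Ifit3b, Oas2, Oas3, Oasl2, Rsad2, Cmpk2, Samd9l, Rtp4, Ifi27l2a, Irf7, Ddx58, Zbp1 and Ifi204, and 8.8% of all genes were lower in this way. Under all 3 scalings 6 of 11 IFIT/OAS/MX genes were lower and 0 higher, and 3 of 7 GBP/IRG genes were higher and 0 lower, while other effectors stood on both sides. Tgtp2, among those 3, had 4.25 TPM in RUNX1mut/HMGA2-OE and 0.453 TPM in HMGA2-OE Ly6G+ cells. The Ly6G+ libraries outside this test had 35.5 TPM in RUNX1mut, above the 30.6 TPM of HMGA2-OE HSC/P, and 13.0 TPM in Control. With the trimmed mean alone 8 of 11 IFIT/OAS/MX genes were lower and 0 higher, with a median log2 fold change of -2.70, and without scaling 6 were lower and 3 higher, with a median of -1.08. Of the 7 GBP/IRG genes 3 were higher and 3 lower with the trimmed mean, with a median of -0.19, and 5 were higher and 0 lower without scaling, with a median of 1.504 beside the 1.46 of all genes. Irgm1 was called in opposite directions, with -0.79 after scaling and 1.05 without it.

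**Figure D2:**
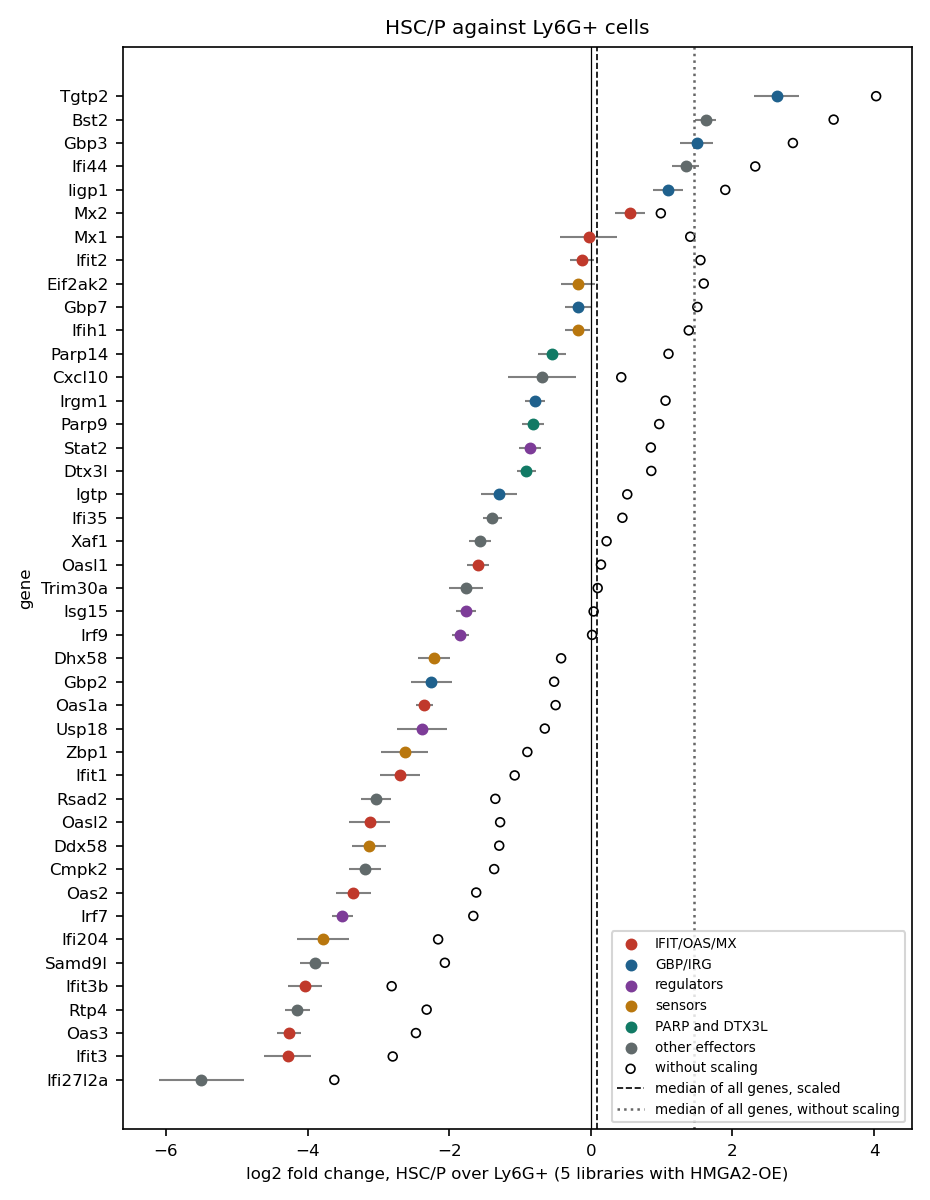
Log2 fold change of each gene in HSC/P over Ly6G+ cells from the 5 libraries with HMGA2-OE, with scaled values and their standard errors in colour by subgroup and values without scaling as open circles. Dashed and dotted lines mark the median of all genes at 0.08 and 1.46, and most IFIT/OAS/MX genes lie far to the left of either line.

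The IFIT genes, whose products bind foreign RNA and block its translation, lie within a cluster on chromosome 19 (mm10) between 34550694, the start of Ifit2, and 34650009, the end of Ifit1. Ifit1 had 4.03 and 4.53 TPM in RUNX1mut/HMGA2-OE HSC/P and 3.02 TPM in HMGA2-OE HSC/P, and in Ly6G+ cells 10.3 TPM in RUNX1mut/HMGA2-OE, 11.1 TPM in RUNX1mut, 7.29 TPM in HMGA2-OE and 4.87 TPM in Control. Ifit3 had 2.73 and 1.24 TPM in RUNX1mut/HMGA2-OE HSC/P and 0.996 TPM in HMGA2-OE HSC/P, and in Ly6G+ cells 19.7, 22.2, 12.4 and 12.1 TPM in RUNX1mut/HMGA2-OE, RUNX1mut, HMGA2-OE and Control. Both genes were lower in every HSC/P library than in any Ly6G+ library. Ifit3b, a close copy of Ifit3, had 0.235 and 0.591 TPM in RUNX1mut/HMGA2-OE HSC/P and 0.394 TPM in the HMGA2-OE HSC/P library, against 10.5, 11.2, 6.95 and 6.06 TPM in RUNX1mut/HMGA2-OE, RUNX1mut, HMGA2-OE and Control Ly6G+ cells. Ifit3 shared 61.8% of its 31-base words with other genes, so reads may be split between the copies, and their sum was 2.97 and 1.83 TPM in RUNX1mut/HMGA2-OE HSC/P and 1.39 TPM in the HMGA2-OE HSC/P library, against 30.2, 33.4, 19.3 and 18.2 TPM in Ly6G+ cells in the same order of genotypes. Ifit2 ran the other way in deposited TPM, with 14.8 and 14.02 TPM in RUNX1mut/HMGA2-OE HSC/P and 16.0 TPM in the HMGA2-OE HSC/P library, against 6.38, 4.94, 2.73 and 2.97 TPM in RUNX1mut/HMGA2-OE, RUNX1mut, HMGA2-OE and Control Ly6G+ cells. After scaling its log2 fold change was -0.12 ± 0.17 and did not pass, and without scaling it was 1.55 and passed.

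The OAS genes lie on chromosome 5, and their products make the 2-5A messenger that activates RNase L; the OAS-like Oasl1 is known in mouse as a translational inhibitor of Irf7. Oas3 had 9.81 and 9.53 TPM in RUNX1mut/HMGA2-OE HSC/P and 8.05 TPM in the HMGA2-OE HSC/P library, against 70.2, 51.2, 38.1 and 46.5 TPM in RUNX1mut/HMGA2-OE, RUNX1mut, HMGA2-OE and Control Ly6G+ cells. Oas2 had 8.10 and 5.07 TPM in RUNX1mut/HMGA2-OE HSC/P and 6.45 TPM in the HMGA2-OE HSC/P library, against 26.6, 18.9, 16.8 and 14.6 TPM in those Ly6G+ cells. The fold changes in HSC/P over Ly6G+ were -4.26 ± 0.17 for Oas3 and -3.35 ± 0.25 for Oas2 (adjusted p 0.000607 and 0.00111, limma). Oas1a had 29.5 and 30.1 TPM in RUNX1mut/HMGA2-OE HSC/P and 28.7 TPM in the HMGA2-OE HSC/P library, against 55.9, 40.7, 28.4 and 19.7 TPM in Ly6G+ cells of RUNX1mut/HMGA2-OE, RUNX1mut, HMGA2-OE and Control mice. It shared 68.8% of its 31-base words with other genes, mostly Oas1g, so its level is uncertain. Oasl2 had 21.3 and 20.3 TPM in RUNX1mut/HMGA2-OE HSC/P and 18.2 TPM in the HMGA2-OE HSC/P library, against 51.7, 65.4, 46.0 and 55.5 TPM in Ly6G+ cells in that order of genotypes. Oasl1 had 8.18 and 7.73 TPM in RUNX1mut/HMGA2-OE HSC/P and 15.4 TPM in the HMGA2-OE HSC/P library, against 10.7, 8.63, 8.09 and 7.52 TPM in Ly6G+ cells. These ranges overlapped between cell types for Oasl1, unlike those of Oas2 and Oas3.

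The MX genes encode GTPases that trap viral nucleocapsids, and both are known to be defective in most laboratory mouse strains. The annotation used lists Mx2 as a polymorphic pseudogene. Mx1 had 12.1 and 7.59 TPM in RUNX1mut/HMGA2-OE HSC/P and 8.24 TPM in the HMGA2-OE HSC/P library, against 5.72, 0.961, 0.755 and 0.928 TPM in RUNX1mut/HMGA2-OE, RUNX1mut, HMGA2-OE and Control Ly6G+ cells. In deposited TPM the RUNX1mut/HMGA2-OE library was the highest of the Ly6G+ libraries for Mx1. Mx2 had 1.19 and 1.09 TPM in RUNX1mut/HMGA2-OE HSC/P and 1.15 TPM in the HMGA2-OE HSC/P library, against 0.135, 0.104, 0.0138 and 0.0352 TPM in Ly6G+ cells. Neither gene passed the test between cell types after scaling, while without scaling both were higher in HSC/P.

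GBP and IRG genes encode interferon-induced GTPases that act on the membranes of microbe-holding vacuoles, and Irgm1 is also known for keeping mouse stem cells quiescent. Gbp2, Gbp3 and Gbp7 lie together on chromosome 3 between 142530342 and 142638008. Gbp3 had 19.1 and 13.7 TPM in RUNX1mut/HMGA2-OE HSC/P and 13.6 TPM in the HMGA2-OE HSC/P library, against 1.87, 1.56, 0.564 and 0.249 TPM in RUNX1mut/HMGA2-OE, RUNX1mut, HMGA2-OE and Control Ly6G+ cells. Gbp2 had 11.8 and 15.7 TPM in RUNX1mut/HMGA2-OE HSC/P and 4.82 TPM in the HMGA2-OE HSC/P library, against 19.6, 18.4, 7.56 and 5.14 TPM in those Ly6G+ cells. Gbp3 was higher in every HSC/P library than in any Ly6G+ library (log2 fold change 1.49 ± 0.23, adjusted p 0.00613, limma), whereas the ranges of deposited TPM overlapped for Gbp2, which was lower after scaling (-2.25 ± 0.29, adjusted p 0.00379, limma) and did not pass without scaling. Gbp7 had 19.6 and 18.6 TPM in RUNX1mut/HMGA2-OE HSC/P and 12.3 TPM in the HMGA2-OE HSC/P library, against 6.95, 6.55, 3.02 and 3.89 TPM in Ly6G+ cells.

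Tgtp2, an IRG gene on chromosome 11, had 50.6 and 91.7 TPM in RUNX1mut/HMGA2-OE HSC/P and 30.6 TPM in HMGA2-OE HSC/P, and in Ly6G+ cells 4.25 TPM in RUNX1mut/HMGA2-OE, 35.5 TPM in RUNX1mut, 0.453 TPM in HMGA2-OE and 13.0 TPM in Control. Both Ly6G+ libraries with HMGA2-OE lay far below both without it. Tgtp2 shared 90.5% of its 31-base words with other genes, foremost Tgtp1, and the sum of both was 65.7 and 109 TPM in RUNX1mut/HMGA2-OE HSC/P and 36.9 TPM in the HMGA2-OE HSC/P library, against 5.07, 37.6, 0.640 and 13.1 TPM in Ly6G+ cells of RUNX1mut/HMGA2-OE, RUNX1mut, HMGA2-OE and Control mice. Irgm1 had 47.2 and 55.0 TPM in RUNX1mut/HMGA2-OE HSC/P and 39.8 TPM in the HMGA2-OE HSC/P library, against 30.99, 27.9, 13.1 and 13.5 TPM in Ly6G+ cells. Igtp had 21.4 and 31.8 TPM in RUNX1mut/HMGA2-OE HSC/P and 18.8 TPM in the HMGA2-OE HSC/P library, against 20.1, 21.8, 11.1 and 13.0 TPM in Ly6G+ cells. In both genes the 2 Ly6G+ libraries with mutated RUNX1 were above the other two in deposited TPM, but not after scaling for Igtp, which then stood at 12.6 in RUNX1mut/HMGA2-OE, 21.4 in RUNX1mut, 16.1 in HMGA2-OE and 14.5 in Control. Iigp1, on chromosome 18, had 3.95 and 5.61 TPM in RUNX1mut/HMGA2-OE HSC/P and 2.84 TPM in HMGA2-OE HSC/P, and stayed under 1 TPM in every Ly6G+ library, with 0.483, 0.928, 0.0769 and 0.0140 TPM in RUNX1mut/HMGA2-OE, RUNX1mut, HMGA2-OE and Control.

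The regulators were all lower in HSC/P after scaling (5 of 5), and Irf7 was the one that stayed lower under all 3 scalings. Irf7, the master factor for amplifying type I interferon, had 24.4 and 22.8 TPM in RUNX1mut/HMGA2-OE HSC/P and 20.1 TPM in the HMGA2-OE HSC/P library, against 96.6, 79.1, 48.2 and 58.8 TPM in RUNX1mut/HMGA2-OE, RUNX1mut, HMGA2-OE and Control Ly6G+ cells. Irf9, the DNA-binding subunit of ISGF3, had 41.4 and 41.3 TPM in RUNX1mut/HMGA2-OE HSC/P and 42.6 TPM in the HMGA2-OE HSC/P library, against 57.1, 37.6, 26.8 and 28.0 TPM in those Ly6G+ cells. Stat2, its partner, had 13.0 and 12.8 TPM in RUNX1mut/HMGA2-OE HSC/P and 11.8 TPM in the HMGA2-OE HSC/P library, against 8.62, 7.87, 4.29 and 6.53 TPM in Ly6G+ cells. Irf9 and Stat2 hardly moved among the HSC/P libraries. Isg15, a ubiquitin-like modifier, had 18.6 and 17.2 TPM in RUNX1mut/HMGA2-OE HSC/P and 18.9 TPM in the HMGA2-OE HSC/P library, against 25.0, 21.4, 11.2 and 12.9 TPM in Ly6G+ cells. Usp18, which removes Isg15 from proteins and dampens receptor signalling, had 9.75 and 15.0 TPM in RUNX1mut/HMGA2-OE HSC/P and 4.56 TPM in the HMGA2-OE HSC/P library, against 18.02, 16.2, 8.70 and 7.90 TPM in Ly6G+ cells.

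Among the sensors, Ddx58 encodes RIG-I, Ifih1 encodes MDA5, Dhx58 their regulator LGP2, Eif2ak2 the kinase PKR, Zbp1 a Z-form nucleic acid sensor and Ifi204 a DNA sensor of the mouse. Ddx58 had 21.6 and 20.1 TPM in RUNX1mut/HMGA2-OE HSC/P and 15.4 TPM in the HMGA2-OE HSC/P library, against 55.9, 48.1, 35.9 and 48.4 TPM in RUNX1mut/HMGA2-OE, RUNX1mut, HMGA2-OE and Control Ly6G+ cells. Zbp1 had 7.72 and 6.76 TPM in RUNX1mut/HMGA2-OE HSC/P and 6.65 TPM in the HMGA2-OE HSC/P library, against 13.6, 21.3, 14.2 and 11.9 TPM in Ly6G+ cells. Both were above every HSC/P value in every Ly6G+ library. Dhx58 had 16.2 and 14.1 TPM in RUNX1mut/HMGA2-OE HSC/P and 17.0 TPM in the HMGA2-OE HSC/P library, against 34.9, 21.2, 11.2 and 17.9 TPM in Ly6G+ cells. Ifi204 had 5.87 and 2.02 TPM in RUNX1mut/HMGA2-OE HSC/P and 3.07 TPM in the HMGA2-OE HSC/P library, against 24.2, 14.6, 12.6 and 10.1 TPM in Ly6G+ cells. Ifih1 and Eif2ak2 did not pass after scaling. Their deposited TPM was above the Ly6G+ values in every HSC/P library, at 9.28 to 10.2 TPM against 1.71 to 4.64 TPM for Ifih1, and at 26.6 to 33.8 TPM against 4.90 to 15.4 TPM for Eif2ak2.

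The other effectors held the most abundant members of both cell types. Bst2 had 125 and 108 TPM in RUNX1mut/HMGA2-OE HSC/P and 104 TPM in the HMGA2-OE HSC/P library, against 13.7, 9.27, 5.53 and 4.002 TPM in RUNX1mut/HMGA2-OE, RUNX1mut, HMGA2-OE and Control Ly6G+ cells (HSC/P over Ly6G+ 1.62 ± 0.15, adjusted p 0.00161, limma). Ifi27l2a had 73.9 and 27.1 TPM in RUNX1mut/HMGA2-OE HSC/P and 45.1 TPM in the HMGA2-OE HSC/P library, against 1237, 596, 198 and 197 TPM in those Ly6G+ cells (-5.50 ± 0.60, adjusted p 0.00244, limma). The pair of RUNX1mut/HMGA2-OE HSC/P libraries differed for Ifi27l2a by more than 2-fold. Ifi44 had 7.52 and 7.42 TPM in RUNX1mut/HMGA2-OE HSC/P and 4.95 TPM in HMGA2-OE HSC/P, and 0.742, 0.672, 0.147 and 0.0914 TPM in Ly6G+ cells, so it was higher in HSC/P throughout. Rsad2, which encodes viperin, had 4.82 and 7.29 TPM in RUNX1mut/HMGA2-OE HSC/P and 4.74 TPM in the HMGA2-OE HSC/P library, against 24.5, 18.4, 7.97 and 9.98 TPM in Ly6G+ cells. Cmpk2, a mitochondrial nucleotide kinase gene next to Rsad2 in the genome, had 11.6 and 14.8 TPM in RUNX1mut/HMGA2-OE HSC/P and 24.3 TPM in the HMGA2-OE HSC/P library, against 60.3, 39.6, 31.5 and 39.4 TPM in Ly6G+ cells. Rsad2 and Cmpk2 were both lower in HSC/P under all 3 scalings.

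Rtp4, a chaperone gene known to restrain the response, had 16.1 and 12.3 TPM in RUNX1mut/HMGA2-OE HSC/P and 14.2 TPM in the HMGA2-OE HSC/P library, against 98.4, 70.4, 51.1 and 38.2 TPM in RUNX1mut/HMGA2-OE, RUNX1mut, HMGA2-OE and Control Ly6G+ cells. Samd9l, a restraint on myeloid growth, had 14.004 and 20.3 TPM in RUNX1mut/HMGA2-OE HSC/P and 18.8 TPM in the HMGA2-OE HSC/P library, against 113, 46.0, 45.8 and 42.8 TPM in Ly6G+ cells. After scaling, Samd9l stood at 70.8 in RUNX1mut/HMGA2-OE, 45.1 in RUNX1mut, 66.4 in HMGA2-OE and 48.1 in Control Ly6G+ cells, so both libraries with HMGA2-OE were above both others. Xaf1, a pro-apoptotic gene, had 24.3 and 25.0 TPM in RUNX1mut/HMGA2-OE HSC/P and 13.5 TPM in the HMGA2-OE HSC/P library, against 30.9, 16.2, 6.58 and 5.72 TPM in Ly6G+ cells. Trim30a, a gene of the TRIM family, had 57.1 and 38.4 TPM in RUNX1mut/HMGA2-OE HSC/P and 30.3 TPM in the HMGA2-OE HSC/P library, against 52.6, 29.1, 21.98 and 26.6 TPM in Ly6G+ cells. Xaf1 and Trim30a were thus higher in RUNX1mut/HMGA2-OE than in HMGA2-OE in both cell types in deposited TPM, while after scaling in Ly6G+ cells Xaf1 stood at 19.4 in RUNX1mut/HMGA2-OE and 9.55 in HMGA2-OE, and Trim30a at 32.9 in RUNX1mut/HMGA2-OE and 31.9 in HMGA2-OE. Ifi35, an interferon-induced leucine zipper gene, had 30.4 and 33.8 TPM in RUNX1mut/HMGA2-OE HSC/P and 31.01 TPM in the HMGA2-OE HSC/P library, against 32.7, 21.2, 14.2 and 15.2 TPM in Ly6G+ cells. The chemokine gene Cxcl10 ranged from 1.18 to 6.04 TPM in HSC/P and from 0.497 to 2.26 TPM in Ly6G+ cells, and its difference between cell types did not pass (adjusted p 0.266, limma). Of the PARP and DTX3L group, Parp9 had 22.002 and 24.4 TPM in RUNX1mut/HMGA2-OE HSC/P and 22.1 TPM in the HMGA2-OE HSC/P library, against 16.9, 14.003, 6.25 and 7.46 TPM in RUNX1mut/HMGA2-OE, RUNX1mut, HMGA2-OE and Control Ly6G+ cells. Its partner Dtx3l had 20.5 and 21.4 TPM in RUNX1mut/HMGA2-OE HSC/P and 16.2 TPM in the HMGA2-OE HSC/P library, against 14.9, 9.99, 5.63 and 6.26 TPM in those Ly6G+ cells. Parp14 ranged from 8.93 to 13.5 TPM in HSC/P and from 2.70 to 7.82 TPM in Ly6G+ cells. Parp9 and Dtx3l passed as lower in HSC/P after scaling (-0.82 ± 0.15 and -0.91 ± 0.14), did not pass under the other scalings, and changed sign without scaling.

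The RUNX1 mutation on its own was read from single libraries, RUNX1mut over Control Ly6G+ cells, which have no replicate and no test. Of the 39 members compared 34 were higher in RUNX1mut, against 48.1% of all genes, with a median log2 ratio of 0.51 against -0.02 over all genes. At least 2-fold higher were 4 members, Gbp2, Ifi27l2a, Tgtp2 and Xaf1, where 5.21% of all genes were; 0 were 2-fold lower, against 3.63%. All 6 GBP/IRG genes compared were higher, with a median of 0.90, and 8 of 9 IFIT/OAS/MX genes, with a median of 0.43. In scaled TPM Gbp2 stood at 18.04 in RUNX1mut and 5.77 in Control, Ifi27l2a at 584 in RUNX1mut and 221 in Control, and Xaf1 at 15.9 in RUNX1mut and 6.42 in Control. Without scaling the members' median was 0.69, against 0.14 over all genes.

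With HMGA2-OE present in both libraries the members were spread around 0. In RUNX1mut/HMGA2-OE over HMGA2-OE Ly6G+ cells 17 of 39 members were higher and 22 lower, against 49.6% of all genes higher, and the median log2 ratio was -0.01 against -0.00 over all genes. At least 2-fold higher were 2 members, Ifi27l2a and Tgtp2 (4.79% of all genes), and at least 2-fold lower were 2, Oasl2 and Zbp1 (5.06%). Of the IFIT/OAS/MX genes 8 of 9 were lower, with a median of -0.52, while GBP/IRG genes had a median of 0.08. Ifit1, for example, was at 6.44 scaled TPM in RUNX1mut/HMGA2-OE and 10.6 in HMGA2-OE, and Oasl2 at 32.4 in RUNX1mut/HMGA2-OE and 66.8 in HMGA2-OE. Scaling matters most for this pair: without it the members' median was 0.99 and that of all genes 1.02, so the direction of the IFIT/OAS/MX median turned to 0.63.

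The ratio without HMGA2-OE exceeded the ratio with HMGA2-OE for 34 of 39 members, against 51.3% of all genes, the exceptions being Dhx58, Eif2ak2, Trim30a, Ifi27l2a and Samd9l. The median difference of the log2 ratios was 0.46 over the members, 1.06 over the IFIT/OAS/MX genes and 0.76 over the GBP/IRG genes, against 0.01 over all genes. Higher without and lower with HMGA2-OE were 19 of 39 members, against 15.8% of all genes. Higher in both pairs were 15 members (32.3% of all genes), lower in both 3 members, Oas3, Ddx58 and Cmpk2 (34.4%), and at least 2-fold higher in both 2 members, Ifi27l2a and Tgtp2 (1.41%). Each of these rests on 4 single libraries in scaled TPM, and the difference between the pairs was not tested. Without scaling the order of the members' medians turned, with 0.69 without HMGA2-OE and 0.99 with it, against 0.14 and 1.02 over all genes.

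**Figure D3:**
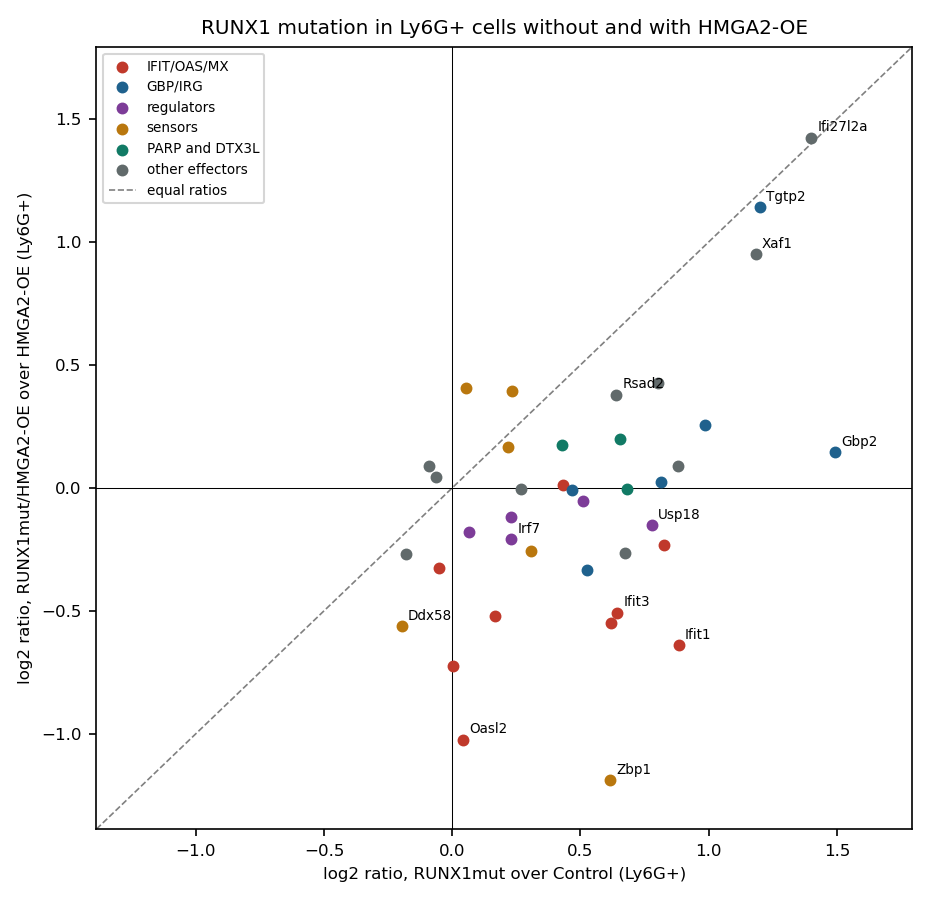
Log2 ratio of each gene in Ly6G+ cells for RUNX1mut over Control (horizontal) against RUNX1mut/HMGA2-OE over HMGA2-OE (vertical), both from scaled TPM plus 1, with 1 library per genotype. Of 39 genes 34 lie to the right of 0, 22 lie below 0, and Ifi27l2a, Tgtp2 and Xaf1 are high on both axes.

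The additive fit to the 4 Ly6G+ libraries gave no call for the RUNX1 term: 0 of 39 members and 0% of all 9820 genes passed in either direction (limma, smallest adjusted p 0.329, 1 residual degree of freedom). At an unadjusted p under 0.05 it had 4 members higher, against 7.22% of all genes, and 0 lower, against 7.08%. These were Ifi27l2a (1.41 ± 0.10), Tgtp2 (1.17 ± 0.12), Xaf1 (1.07 ± 0.13) and Rsad2 (0.51 ± 0.14), and the smallest values were those of Oasl2 (-0.49 ± 0.34), Ddx58 (-0.38 ± 0.15), Oasl1 (-0.36 ± 0.25) and Zbp1 (-0.29 ± 0.56), where each error is a standard error of the fit. Gbp2, at 0.82 ± 0.42, had the fourth largest value. With 1 library per genotype, these errors come from the departure of the 4 libraries from additivity and not from replicates. Of the 39 members 30 had a positive RUNX1 term, against 49% of all genes, with a median of 0.20. In refits that also took in the HSC/P libraries, leaving out the Control or the RUNX1mut library gave a median of -0.06, and leaving out the HMGA2-OE or the RUNX1mut/HMGA2-OE library gave 0.46 and 0.45, so the sign depended on which pair was left. Without scaling all 39 were positive and their median was 0.80, where all genes had a median of 0.58. In scaled TPM 14 members were higher in both RUNX1-mutant Ly6G+ libraries than in both others, against 24.8% of all genes, and 3 were lower in both, against 26%.

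Of the 8 marker lists, 6 had higher sums of deposited TPM in both RUNX1-mutant Ly6G+ libraries than in both others. The neutrophil list and the monocyte and macrophage list did not. Stem and progenitor markers summed to 42.9 TPM in RUNX1mut/HMGA2-OE, 32.8 TPM in RUNX1mut, 12.1 TPM in HMGA2-OE and 17.2 TPM in Control. Over the 7 of them compared, the scaled median was 0.82 for RUNX1mut/HMGA2-OE over HMGA2-OE (1 lower) and 1.13 for RUNX1mut over Control (2 lower). The 6 erythroid markers summed to 5802 TPM in RUNX1mut/HMGA2-OE, 311 TPM in RUNX1mut, 77.2 TPM in HMGA2-OE and 92.8 TPM in Control Ly6G+ cells. The 5 megakaryocyte markers summed to 59.5, 43.8, 4.74 and 3.84 TPM in that order, the 7 B lymphoid markers to 59.0, 70.0, 14.2 and 20.6 TPM, and the 10 plasmacytoid dendritic cell markers to 52.6, 33.2, 18.3 and 18.8 TPM. The 8 T and NK markers summed to 26.7, 21.2, 19.4 and 13.1 TPM, but after scaling the median log2 ratio of the 3 compared was -0.61 for RUNX1mut/HMGA2-OE over HMGA2-OE and 0.73 for RUNX1mut over Control. The scaled medians for RUNX1mut/HMGA2-OE over HMGA2-OE and for RUNX1mut over Control were 2.28 and 1.43 for erythroid, 1.74 and 2.34 for megakaryocyte, 0.59 and 1.04 for B lymphoid, 0.41 and 0.24 for plasmacytoid dendritic cell and 0.74 and 0.86 for monocyte and macrophage markers. The 12 monocyte and macrophage markers summed to 932, 983, 1119 and 1525 TPM, most of it Ly6c2, yet C1qb stood at 37.3 TPM in RUNX1mut/HMGA2-OE, 28.0 TPM in RUNX1mut, 7.64 TPM in HMGA2-OE and 9.41 TPM in Control, and Ccr2 at 7.68, 4.82, 2.82 and 0.644 TPM. Of the plasmacytoid dendritic cell markers, Pld4 stood at 17.4 TPM in RUNX1mut/HMGA2-OE, 9.54 TPM in RUNX1mut, 5.46 TPM in HMGA2-OE and 2.31 TPM in Control. Ly6d and Spib were also higher in both RUNX1-mutant libraries. Tcf4 stood at 6.13, 2.52, 1.57 and 2.49 TPM in that order, so it hardly differed between RUNX1mut and Control. Klk1 was highest in Control, at 1.72, 1.58, 0.451 and 2.41 TPM. Siglech stayed under 1 TPM in all 4, Ccr9 was listed at 0 in both RUNX1-mutant ones and Cox6a2 at 0 in RUNX1mut/HMGA2-OE. The part of these cells in the members' differences was not tested, and in bulk RNA more cells of a type and more RNA per cell cannot be told apart.

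HMGA2 overexpression alone, read from HMGA2-OE over Control Ly6G+ cells, gave ratios below 2-fold for all members compared except Tgtp2. Of 39 members 34 were higher in HMGA2-OE, against 52.1% of all genes, with a median log2 ratio of 0.21 against 0.02 over all genes. None of the members was at least 2-fold higher, so 0 of 39 stood beside 3.22% of all genes, and 1, Tgtp2, was at least 2-fold lower, beside 3.23%. All 9 IFIT/OAS/MX genes compared were higher, with a median of 0.43, led by Oas1a (0.87) and Ifit1 (0.84). Without scaling the members' median was -0.09, against -0.28 over all genes.

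In RUNX1mut/HMGA2-OE over RUNX1mut Ly6G+ cells 32 of 39 members were lower, against 51.7% of all genes, with a median of -0.22, and without scaling the median turned to 0.29 against 0.55 over all genes. At least 2-fold higher were 0 members in that pair (3.89% of all genes), and Tgtp2 and Zbp1 were at least 2-fold lower (4.43%). The HMGA2-OE term of the additive fit called 0 of 39 members, as of all genes (0%), with a smallest adjusted p of 0.239 (limma). At an unadjusted p under 0.05 Samd9l (0.55 ± 0.12) and Ifi27l2a (0.39 ± 0.10) were higher, against 3.12% of all genes, and Tgtp2 (-3.26 ± 0.12) was lower, against 3.37%. Xaf1 (0.39 ± 0.13) and Ifi204 (0.36 ± 0.20) followed among the largest values, and Parp14 (-0.48 ± 0.24), Oasl2 (-0.43 ± 0.34) and Stat2 (-0.33 ± 0.14) among the smallest. Tgtp2 was the member with the smallest p of all, and it passed when TPM was not scaled (-3.03). In scaled TPM Trim30a, Samd9l and Ifi204 were higher in both HMGA2-OE Ly6G+ libraries than in both others (14.9% of all genes), and Stat2, Parp14 and Tgtp2 were lower in both (14.3%).

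With both changes, RUNX1mut/HMGA2-OE over Control Ly6G+ cells, 25 of 39 members were higher, against 49.7% of all genes, with a median of 0.20. Ifi27l2a (1.805) and Xaf1 (1.46) were at least 2-fold higher, beside 6.41% of all genes, and Tgtp2 (-2.09) was at least 2-fold lower, beside 6.11%. The IFIT/OAS/MX median was -0.04 and that of the other effectors 0.53. The pairs that use the Control library share it, and likewise for each other library, so these values are not independent of one another.

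**Figure D4:**
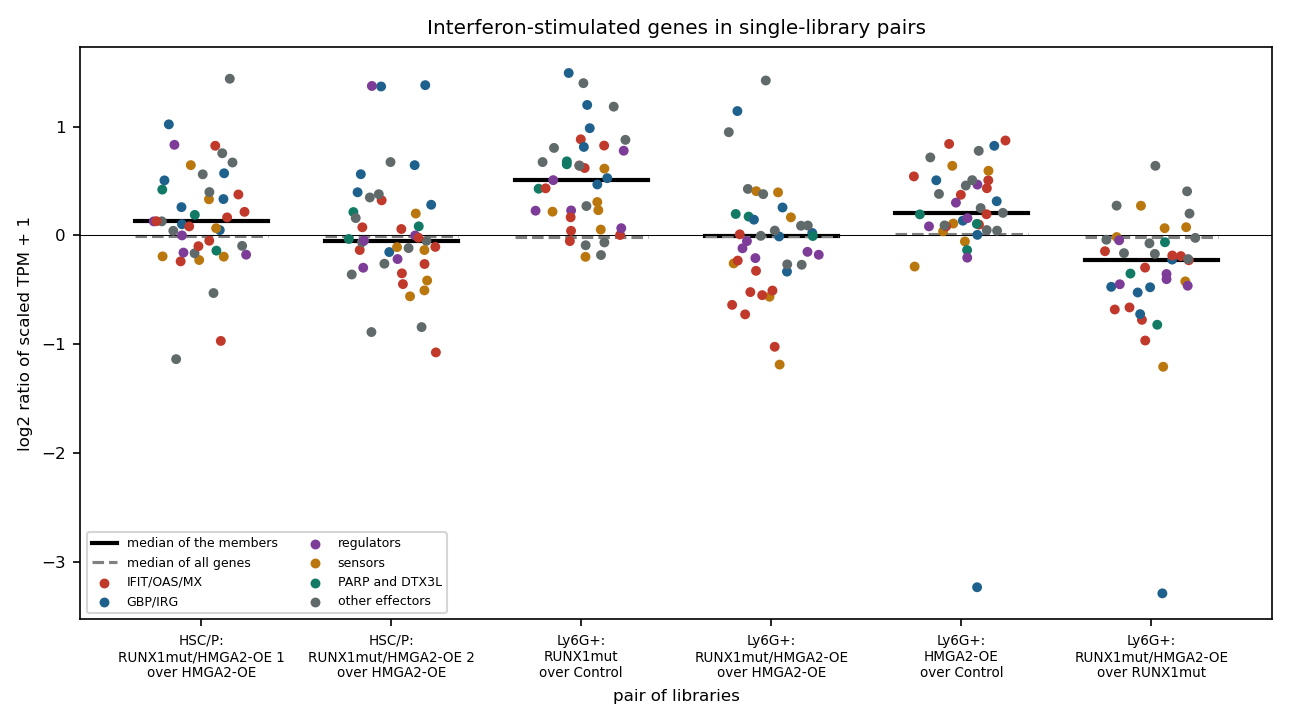
Log2 ratios of the genes (points, coloured by subgroup) in 6 pairs of single libraries, with the median of the members as a black bar and that of all genes as a dashed grey bar. The black bar stands at 0.51 for RUNX1mut over Control Ly6G+ cells and near the grey bar for RUNX1mut/HMGA2-OE over HMGA2-OE, and the lowest points of the last 2 pairs are Tgtp2.

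In HSC/P the RUNX1 mutation was compared on the HMGA2-OE background only, 2 RUNX1mut/HMGA2-OE libraries against 1 HMGA2-OE library. No gene passed (0%, smallest adjusted p 0.126 over all genes and 0.213 over the 42 members tested, limma with 1 residual degree of freedom). Of the members 24 were higher and 18 lower, with a median of 0.05, against 48.9% of all genes higher. At an unadjusted p under 0.05 Gbp2 (1.19 ± 0.25), Usp18 (1.10 ± 0.32) and Xaf1 (0.67 ± 0.16) were higher, against 8.41% of all genes, and Oasl1 (-1.02 ± 0.20) and Cmpk2 (-0.99 ± 0.22) were lower, against 6.98%. Tgtp2 (0.98 ± 0.40) was also among the 4 largest values, and Eif2ak2 (-0.37 ± 0.20) and Dhx58 (-0.30 ± 0.20) among the 4 smallest. In scaled TPM, non-overlapping levels were seen for 16 members that were higher in both RUNX1mut/HMGA2-OE libraries (38.6% of all genes) and 14 that were lower (40%).

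The GBP/IRG genes were the subgroup whose values all lay on 1 side in HSC/P, 7 of 7 with positive log2 fold changes and a median of 0.45, though no member passed. In single libraries 7 of 7 were higher in the first RUNX1mut/HMGA2-OE library and 6 of 7 in the second, where Gbp3 was lower (-0.15). Their sum in scaled TPM was 170 and 221 in RUNX1mut/HMGA2-OE and 132 in HMGA2-OE HSC/P. The IFIT/OAS/MX sum was 109 and 96.9 in RUNX1mut/HMGA2-OE and 115 in HMGA2-OE HSC/P. In the first RUNX1mut/HMGA2-OE library Gbp2 and Cxcl10 were at least 2-fold higher than in HMGA2-OE (5.71% of all genes) and Cmpk2 at least 2-fold lower (3.66%). In the second, Gbp2, Usp18 and Tgtp2 were at least 2-fold higher (7.2%) and Oasl1 at least 2-fold lower (4.59%). The replicate pair itself differed by less than 2-fold for 39 of 42 members, or 92.9%, against 95.3% of all genes, and Cxcl10, Ifi27l2a and Ifi204 differed by more.

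The HMGA2-OE HSC/P library also differed in its markers. Neutrophil markers summed to 18049 and 18883 TPM in RUNX1mut/HMGA2-OE and 63247 TPM in HMGA2-OE HSC/P, and stem and progenitor markers to 941 and 945 TPM in RUNX1mut/HMGA2-OE and 352 TPM in HMGA2-OE HSC/P. Monocyte and macrophage markers summed to 418 and 324 TPM in RUNX1mut/HMGA2-OE and 913 TPM in HMGA2-OE HSC/P. Ly6c2 was the largest value in that sum, at 182 and 176 TPM in RUNX1mut/HMGA2-OE and 715 TPM in HMGA2-OE HSC/P. After scaling, 3 of these 12 markers had positive log2 fold changes with the mutation and 9 had negative ones. Megakaryocyte markers summed to 715 and 1927 TPM in RUNX1mut/HMGA2-OE and 410.0 TPM in HMGA2-OE HSC/P, T and NK markers to 30.8 and 30.9 TPM in RUNX1mut/HMGA2-OE and 140.0 TPM in HMGA2-OE HSC/P, and erythroid markers to 849 and 1505 TPM in RUNX1mut/HMGA2-OE and 1861 TPM in HMGA2-OE HSC/P. Nkg7 made up most of the T and NK sum, at 23.6 and 26.2 TPM in RUNX1mut/HMGA2-OE and 135 TPM in HMGA2-OE HSC/P. Of the other T and NK markers, Cd3g, Cd4 and Cd8a were higher in both RUNX1mut/HMGA2-OE libraries, and the rest were lower. Such sums do not count cells, and the part of other cells in the members' differences was not tested.

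The interaction of mutation and cell type, the difference with the RUNX1 mutation in HSC/P minus that in Ly6G+ cells within the 5 libraries with HMGA2-OE, gave 0 calls among 43 members and among all genes (0%, smallest adjusted p 0.128, and 0.186 among the members, limma). At an unadjusted p under 0.05 it was positive for 4 members, Zbp1 (1.22 ± 0.25), Oasl2 (1.08 ± 0.19), Ifit1 (0.94 ± 0.24) and Ddx58 (0.84 ± 0.20), against 8.1% of all genes, and negative for 0, against 10.5%. Usp18 (1.19 ± 0.44) and Gbp2 (0.97 ± 0.33) were among the 4 largest values, and Ifi27l2a (-1.58 ± 1.13), Mx1 (-1.35 ± 0.52), Eif2ak2 (-0.78 ± 0.29) and Dhx58 (-0.70 ± 0.25) were the 4 smallest. The median over the members was -0.07 and over the IFIT/OAS/MX genes 0.43, against -0.03 over all genes; without scaling these were -0.74, -0.63 and -0.77. Leaving out either Ly6G+ library needed a refit that also took in the Control and RUNX1mut Ly6G+ libraries, and with both changes the members' median was -0.46 or -0.48 and the sign turned for Zbp1, Gbp2 and Mx1.

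Genes for the interferons themselves were listed at 0 in most libraries. Of 18 listed ligand genes 10 were among the rows used here, and all 10, Ifnb1 and Ifng among them, were listed at 0 in 5 libraries. The HMGA2-OE Ly6G+ library listed Ifna2 at 0.0430 TPM, and the RUNX1mut/HMGA2-OE Ly6G+ library listed Ifna13 at 0.163 TPM and Ifnl3 at 0.379 TPM. The receptor gene Ifnar1 stood at 29.7 and 23.3 TPM in RUNX1mut/HMGA2-OE HSC/P and 18.4 TPM in HMGA2-OE HSC/P, and in Ly6G+ cells at 93.6 TPM in RUNX1mut/HMGA2-OE, 16.5 TPM in RUNX1mut, 12.9 TPM in HMGA2-OE and 16.9 TPM in Control. Ifnlr1, the receptor for type III interferon, stood at 0.392 and 0.562 TPM in RUNX1mut/HMGA2-OE HSC/P and 2.15 TPM in the HMGA2-OE HSC/P library, against 19.1, 14.5, 11.5 and 18.9 TPM in Ly6G+ cells in the same order of genotypes. Between cell types, where 32.8% of all genes were lower and 31.6% higher in HSC/P, 7 of 9 receptors and kinases were lower and 0 higher, or 3 lower and 2 higher without scaling. Of 8 feedback genes 7 were lower and 0 higher, or 3 lower and 2 higher without scaling. Of 8 transcription factors 4 were lower and 3 higher, or 1 lower and 5 higher without scaling. Of 8 upstream sensors and adaptors tested 3 were lower and 2 higher, or 1 lower and 6 higher without scaling. Without scaling 8.88% of all genes were lower and 64.4% higher.

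Among 55 other interferon-stimulated genes in the table, 48 were tested between cell types and 30 passed as lower and 8 as higher in HSC/P, beside the same 32.8% and 31.6% of all genes, with a median of -1.16. Without scaling 9 passed as lower and 19 as higher, with a median of 0.55 against 1.46 over all genes. No gene of any of these lists passed for the mutation in HSC/P or for either term in Ly6G+ cells after scaling. In RUNX1mut over Control Ly6G+ cells 32 of 43 other interferon-stimulated genes were higher, against 48.1% of all genes, with a median of 0.31, and in RUNX1mut/HMGA2-OE over HMGA2-OE 20 of 43, against 49.6%, with a median of -0.04. All 7 transcription factors compared were higher in RUNX1mut over Control, with a median of 0.39, and 1 of 7 in RUNX1mut/HMGA2-OE over HMGA2-OE, with a median of -0.27, or 0.78 without scaling against 1.02 over all genes. In HSC/P all 8 transcription factors had positive values for the mutation, against 48.9% of all genes, with a median of 0.38. In each RUNX1mut/HMGA2-OE library alone 7 of 8 were higher and 1 lower than in HMGA2-OE HSC/P. The largest values were those of Irf5 (1.37 ± 0.22) and Irf1 (0.66 ± 0.16), which did not pass after adjustment. Irf1, a factor downstream of interferon gamma, stood at 44.9 and 51.7 TPM in RUNX1mut/HMGA2-OE HSC/P and 27.0 TPM in the HMGA2-OE HSC/P library, against 109, 106, 67.3 and 70.8 TPM in RUNX1mut/HMGA2-OE, RUNX1mut, HMGA2-OE and Control Ly6G+ cells.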

How the data were processed

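Bone marrow RNA was sequenced in 7 libraries of 6 groups, grouped by the submitters' labels. Per the submitters' processing notes, bcl2fastq, CASAVA 1.8, kallisto and mm10 were involved, with no annotation release named. The values deposited by the authors were taken as TPM because they are not whole numbers and their columns sum to between 896820 and 993009. Depth per library is therefore unknown. Symbols came from GENCODE for 27458 of 28987 identifiers.

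A gene entered a fit when 2 or more of its libraries reached 1 TPM. Libraries were scaled by a trimmed mean of log ratios without weights (trims of 0.3 and 0.05). Then limma 3.58.1 in R 4.3.3 (trended variance, two-sided, Benjamini-Hochberg at 0.05) was run on log2 of scaled TPM plus 1, which understates changes of low genes. The ± values are standard errors. There were 5 tests and 7 pairs of single libraries, where called means 2-fold. P-values and standard errors measure only the spread that each fit leaves over. For the Ly6G+ terms, with 1 library per genotype, that is the departure from additivity and not a spread between replicates. For the mutation in HSC/P and the interaction it is the difference within the pair of RUNX1mut/HMGA2-OE HSC/P libraries. The test between cell types takes in that pair and the departure from additivity of mutation and cell type. Members, subgroups and lists were chosen with earlier results of these data known. Values in every library are given for IFIT/OAS/MX and GBP/IRG genes and for members called in a test, and the 4 largest and 4 smallest members are named per test. A named gene outside this rule was chosen after its values were seen. Shares of 31-base words came from the reference transcripts. The procedure was tested on simulated data. Python 3.11.15, pandas 2.3.3 and matplotlib 3.10.9 were used. Alternatives tried were no scaling, upper-quartile scaling, other filters and pseudocounts, each library left out, a longer ISRE, and 2 reduced member lists added after seeing the data.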

Additional observations from a re-analysis of the deposited data

Results flagged for a closer look

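In Ly6G+ cells 4 of 39 members had log2 ratios for the RUNX1 mutation past 0.5 in size and of opposite sign with and without HMGA2-OE. The share of all genes under that rule is not given. The medians of the members and of the IFIT/OAS/MX genes also differed. Each value was read from 1 library per genotype, and the difference was not tested. The median log2 ratio of the members was -0.009 for RUNX1mut/HMGA2-OE over HMGA2-OE and 0.508 for RUNX1mut over Control. For the IFIT/OAS/MX genes it was -0.521 with HMGA2-OE and 0.433 without. Ifit1 had a log2 ratio of -0.639 with HMGA2-OE and 0.883 without, Ifit3 had -0.507 with and 0.642 without, Ifit3b -0.549 with and 0.619 without, and Zbp1 -1.187 with and 0.614 without. Ifit3 and Ifit3b share much of their sequence and are not independent of each other. All of these are on scaled TPM plus 1; the genes were singled out because both ratios exceed 0.5 in size and differ in sign. The members' median with HMGA2-OE is close to 0. Of 39 members 15 were higher in both pairs (32.3% of all genes) and 3 lower in both (34.4%). Higher without and lower with HMGA2-OE, at any size, were 19 (15.8%). Without scaling the log2 ratio for RUNX1mut/HMGA2-OE over HMGA2-OE was 0.45 for Ifit1, 0.63 for Ifit3, 0.53 for Ifit3b, -0.06 for Zbp1 and 0.63 for the IFIT/OAS/MX median, against 1.02 for the median of all genes.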

How the results depend on the processing

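Scaling was the choice that moved most values. Without it the median log2 fold change of the members was 0.19 in place of 0.05 for RUNX1mut/HMGA2-OE over HMGA2-OE HSC/P, 0.804 in place of 0.204 for the RUNX1 term, 0.142 in place of 0.005 for the HMGA2-OE term, 0.096 in place of -1.759 for HSC/P over Ly6G+ cells and -0.739 in place of -0.068 for the interaction. The RUNX1 term turned to 0.199 for Oasl2, 0.308 for Ddx58, 0.271 for Oasl1 and 0.366 for Zbp1, which relative to the median of all genes are -0.38, -0.27, -0.31 and -0.22, so below that median as before. The HMGA2-OE term then called 1 member lower, Tgtp2 at -3.033, and HSC/P over Ly6G+ cells called 13 higher and 15 lower. Without scaling, members at least 2-fold higher numbered 8 for RUNX1mut over Control Ly6G+ cells (median 0.689, all genes 0.143) and 18 for RUNX1mut/HMGA2-OE over HMGA2-OE (0 lower, median 0.986, all genes 1.021). They numbered 2 for RUNX1mut/HMGA2-OE over RUNX1mut (1 lower, median 0.285, all genes 0.553) and 18 for RUNX1mut/HMGA2-OE over Control (median 0.943, all genes 0.723). For the pair counts of this paragraph the share of all genes past 2-fold is not given, so they show no excess among the members. The median was -0.091 for HMGA2-OE over Control Ly6G+ cells, and 0.26 and 0.119 for the first and second RUNX1mut/HMGA2-OE HSC/P library over HMGA2-OE, with 0 lower in the second. Upper-quartile scaling gave a median of -1.233 for HSC/P over Ly6G+ cells and 1 member 2-fold lower in RUNX1mut/HMGA2-OE over HMGA2-OE Ly6G+ cells. A filter of 5 TPM gave 0.082 for the interaction, 1 member lower in that Ly6G+ pair and 1 higher in the first HSC/P pair. No filter gave -1.568 for HSC/P over Ly6G+ cells and 1 member higher in RUNX1mut/HMGA2-OE over RUNX1mut. A pseudocount of 0.1 gave, each time over Control Ly6G+ cells, 7 members higher in RUNX1mut, 1 member in HMGA2-OE, 5 members in RUNX1mut/HMGA2-OE, and 2 lower in the first HSC/P pair. The longer ISRE was found in 12 promoters.

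Leaving out 1 library at a time gave medians of -0.062 to 0.458 for the RUNX1 term, -0.239 to 0.251 for the HMGA2-OE term, -1.776 to -1.615 for HSC/P over Ly6G+ cells and -0.48 to -0.188 for the interaction. Zbp1 ranged from -1.293 to 0.568 in the RUNX1 term, and Oasl2 from -0.963 to 0.112 in the HMGA2-OE term. In the interaction Mx1 ranged from -0.811 to 0.151, Zbp1 from -0.643 to 0.394 and Gbp2 from -0.48 to 0.365. Where too few libraries remained, all 6 remaining libraries were fitted together, which adds libraries of the other cell type or genotypes in every test but HSC/P over Ly6G+ cells, so more than the left-out library changed and a lone library is assumed to vary like the others. Without the HMGA2-OE HSC/P library neither the HSC/P comparison nor the interaction had a value. Of the alternatives added after seeing the data, leaving out members that share over 50% of 31-base words gave -1.593 for HSC/P over Ly6G+ cells, and leaving out those with a transcript of 350 to 420 bases gave 2 called higher there and 0.129 for the interaction. Of the other values, 409 for single genes kept their direction and their side of the threshold, and 246 counts and medians moved by less than 1.5 times or less than their spread. No paired analysis was possible because the groups compared share fewer than 2 replicate numbers. Unless a setting itself removed genes or libraries, the cause was not tested.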
